A study of Mus musculus with 9 samples.

Results

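Mouse chromosome 4 carries 30 genes whose names begin with Zfp and a number, and their RNA was followed here in whole lung cells of wild-type and DJ-1 knockout mice. They were taken by chromosome and name from a table of 55851 genes, with no condition on their level. Of the 30, 18 start within 6 Mb before the start of Park7, the gene that encodes DJ-1, and the other 12 are spread over the rest of the chromosome. The choice of this group followed the opposite differences of Zfp990 and Zfp984 in the knockout libraries, so the values of these genes in those libraries are given below as a description, with no p-value. Counts of them past a threshold in the knockout comparisons stand only beside the share of all genes and support nothing. Only the comparison of the wild-type groups uses no knockout library. Its libraries also enter the knockout differences, so it is not fully independent of the choice.

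The 9 libraries, 3 to a group, came from female mice of the C57BL/6J background at a labelled time of 7 weeks: wild-type mice given phosphate-buffered saline (WT PBS, libraries 1, 2 and 3), wild-type mice challenged with ovalbumin, the egg protein used to provoke allergic airway inflammation (WT OVA, libraries 5, 6 and 9), and knockout mice lacking DJ-1 after the same ovalbumin challenge (DJ-1 KO OVA: DJ1_KO_OVA_263, DJ1_KO_OVA_266 and DJ1_KO_OVA_267). No knockout group without ovalbumin was analysed here. Whether 1 library stands for 1 animal is not stated in the labels, so the spread between libraries may be partly technical. Nor do the labels give how the knockout allele was made or how the line was bred, so the loss of DJ-1 and any other difference between the knockout line and the wild-type mice cannot be told apart.

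Zfp genes mostly encode proteins with arrays of C2H2 zinc fingers, short loops in which a pair of cysteines and a pair of histidines hold a zinc ion and the residues between them read DNA. Many of these proteins also carry a KRAB domain, which recruits the corepressor TRIM28 and the histone methyltransferase SETDB1 and thereby silences chromatin, above all at transposable elements. KRAB zinc finger genes multiply by local duplication, lie in clusters of near-identical copies, and differ in copy number among inbred mouse strains; the end of mouse chromosome 4 holds one such cluster.

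All 30 genes are protein coding, and 28 of them have a C2H2 zinc finger family entry in the table. The 18 genes near Park7 lie between 145510759 and 147848366 (GRCm38), a stretch of 2.34 Mb, with 14 on the plus strand and 4 on the minus strand. Zfp990 is the first of them, 5.39 Mb before the Park7 start at 150897133. Zfp933 is the last, and its end lies 3.05 Mb before Park7.

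The first finger of 4 of these genes is shown because these copies differ in the knockout libraries while their sequences are close. Each sequence is one 84-base repeat unit of the coding strand, from GENCODE vM21 transcripts (GRCm38), and the capitals mark the codons of the zinc-binding cysteines and histidines. The genes are Zfp990 (chr4:145510759-145539188, plus strand), Zfp984 (chr4:147753974-147809788, minus strand), Zfp991 (chr4:147132038-147180579, plus strand) and Zfp993 (chr4:146610961-146658160, plus strand).
Zfp990: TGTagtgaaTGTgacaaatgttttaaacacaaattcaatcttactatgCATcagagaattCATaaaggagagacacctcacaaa
Zfp984: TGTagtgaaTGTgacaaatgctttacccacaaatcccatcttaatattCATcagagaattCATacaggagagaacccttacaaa
Zfp991: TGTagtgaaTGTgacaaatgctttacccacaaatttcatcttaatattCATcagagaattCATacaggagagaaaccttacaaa
Zfp993: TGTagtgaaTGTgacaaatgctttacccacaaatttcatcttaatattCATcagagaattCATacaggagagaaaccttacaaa
The units of Zfp991 and Zfp993 are identical, that of Zfp984 differs from both at 3 of 84 bases, and that of Zfp990 differs from Zfp984 at 11. The annotated coding sequences hold 13 fingers of this spacing pattern in Zfp990, 11 in Zfp984, 11 in Zfp991, 11 in Zfp992, 12 in Zfp933 and 2 in Zfp993. The sequence annotated for Zfp993 has 940 bases, against 1719 in Zfp991, and is not a whole number of codons. The same is true of Zfp986 (1204 bases) and Zfp978 (1007 bases), so the finger counts of these genes may be incomplete. Over the 18 clustered genes the count ran from 2 to 17 with a median of 11, against 1 to 33 with a median of 6 in the other 12.

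Coding identity within the cluster was high. Aligned coding bases of Zfp990 and Zfp984 matched at 93.2% (1641 bases). Zfp991 matched Zfp993 at 99.8% (940 bases) and Zfp992 at 99.5% (1719 bases). Over all 153 pairs of the cluster the identity ranged from 66.2% to 99.8%, with a median of 85.7%.

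Reads from such copies can be hard to place, so the share of each gene's 50-base transcript words that also occur in another annotated gene was counted. It was 29.1% for Zfp990, 54.5% for Zfp984, 82.2% for Zfp991, 86.8% for Zfp993 and 43.0% for Zfp992, but 1.83% for Zfp933. The cluster had a median of 68.0%, whereas the median of the 12 genes elsewhere was 0. The values of Zfp984, Zfp991, Zfp992 and Zfp993 below are therefore uncertain in how reads were divided among copies, since how the counting treated reads that match several places is not known from the labels. The same holds, over a smaller share of words, for Zfp990, Zfp979 (27.1%) and Zfp982 (11.9%). The gene sharing most words was Zfp987 with Zfp990 (13.1%), Gm13212 with Zfp984 (46.9%), the pseudogene Znf41-ps with Zfp991 (67.1%), and Zfp991 with both Zfp993 (81.9%) and Zfp992 (37.5%).

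**Figure D1:**
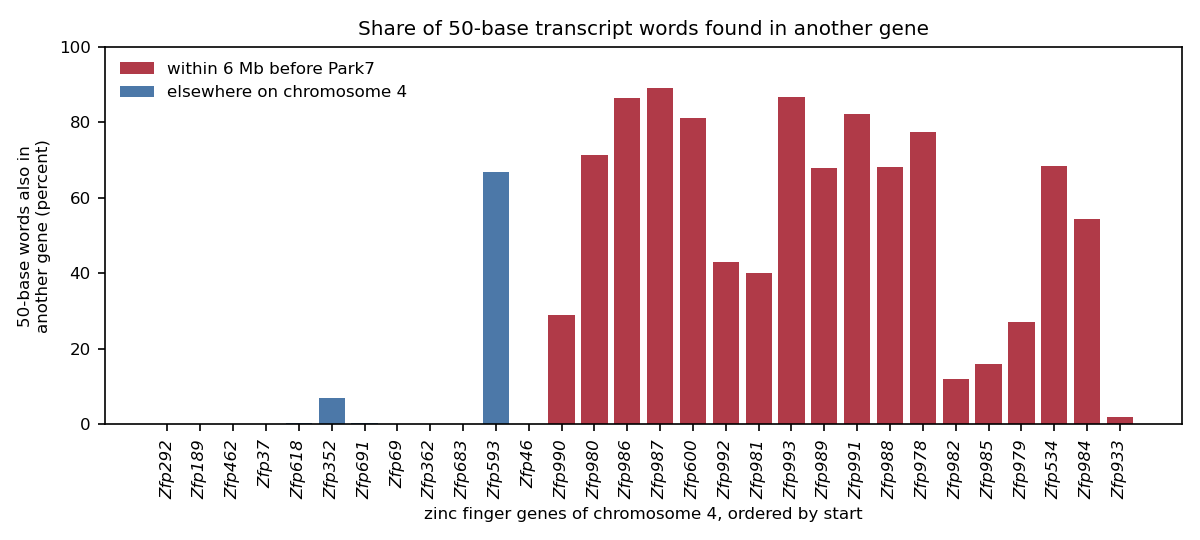
Bars give, for each of the 30 zinc finger genes in order of start, the percent of its 50-base transcript words found in another annotated gene; red bars are the 18 genes within 6 Mb before Park7 and blue bars the 12 elsewhere. The red bars reach 89.0%, Zfp933 is at 1.83%, and of the blue bars Zfp593 stands at 66.9%.

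RefSeq promoters (GRCm38.p6, 250 bases before to 50 after the start) matched 19 of the 30 genes, 11 of them in the cluster. No promoter was used for Zfp990, Zfp986, Zfp992, Zfp993, Zfp989, Zfp991 or Zfp978. Promoters are shown for Zfp984, which was lower in the knockout libraries, for Zfp985 and Zfp534, whose few reads lay mostly there, and for Zfp933, which overlapped between the ovalbumin groups. Capitals mark the strings of 8 or more bases that at least 10 of the 11 cluster promoters hold on the gene's strand; there are 3, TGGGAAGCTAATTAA, AAGCAAGCAAG and TATTGGGCG.
Zfp984 (chr4:147809739-147810038, minus strand): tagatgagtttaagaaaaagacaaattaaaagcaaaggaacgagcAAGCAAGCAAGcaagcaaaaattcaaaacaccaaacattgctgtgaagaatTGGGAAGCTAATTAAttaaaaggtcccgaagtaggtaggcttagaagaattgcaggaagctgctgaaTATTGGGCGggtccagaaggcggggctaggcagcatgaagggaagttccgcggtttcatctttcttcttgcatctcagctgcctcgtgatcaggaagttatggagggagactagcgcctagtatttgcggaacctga
Zfp985 (chr4:147553027-147553326, plus strand): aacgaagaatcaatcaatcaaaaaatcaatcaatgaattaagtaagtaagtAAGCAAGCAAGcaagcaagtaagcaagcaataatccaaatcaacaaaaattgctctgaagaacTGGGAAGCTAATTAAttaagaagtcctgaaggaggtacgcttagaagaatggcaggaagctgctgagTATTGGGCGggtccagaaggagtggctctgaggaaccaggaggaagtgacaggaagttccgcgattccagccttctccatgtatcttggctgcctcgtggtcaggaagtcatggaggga
Zfp534 (chr4:147702582-147702881, minus strand): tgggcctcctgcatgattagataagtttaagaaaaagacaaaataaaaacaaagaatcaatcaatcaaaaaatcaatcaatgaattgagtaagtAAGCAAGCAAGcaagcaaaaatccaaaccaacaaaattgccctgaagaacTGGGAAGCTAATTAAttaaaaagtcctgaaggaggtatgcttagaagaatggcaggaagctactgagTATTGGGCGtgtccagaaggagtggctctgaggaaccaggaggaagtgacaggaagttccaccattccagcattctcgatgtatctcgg
Zfp933 (chr4:147848369-147848668, minus strand): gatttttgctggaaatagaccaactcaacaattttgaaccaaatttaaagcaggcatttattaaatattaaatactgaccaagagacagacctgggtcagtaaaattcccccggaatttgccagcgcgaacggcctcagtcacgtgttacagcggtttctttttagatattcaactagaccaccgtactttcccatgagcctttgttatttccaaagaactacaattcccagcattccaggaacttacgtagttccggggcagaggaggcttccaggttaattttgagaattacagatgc
Searched on both strands, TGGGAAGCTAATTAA was in 12 of 32851 RefSeq promoters of the same length (0.0365%), and all of these lie in the cluster's stretch of chromosome 4. AAGCAAGCAAG, a run of a 4-base repeat, was in 42 (0.128%), and TATTGGGCG, which contains the reverse complement of the CCAAT box, was in 39 (0.119%). The 3 strings do not overlap one another in the promoters shown. Further copies of the repeat string overlap its marked copy and are not fully in capitals. Zfp933 has none of them, and neither do the 8 matched promoters of zinc finger genes elsewhere on the chromosome. As the strings were picked for being shared, their presence in 10 of 11 is a description only. The 45 pairs of cluster promoters without Zfp933 were 79.5% to 98.8% identical over aligned bases, and Zfp933 matched the others at 55.6% to 63.5%. Of the promoters shown, those of Zfp984, Zfp985 and Zfp534 hold all 3 strings. Zfp534 had only 10 reads in all, and any link between the strings and the levels was not tested.

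Levels are in FPKM, the deposited unit: fragments scaled to transcript length and to library size. Differences are in log2(FPKM + 0.5), a scale that understates changes of low genes, with a standard error (SE) from limma fitted over all 9 libraries. Tests were run where the mean over all libraries reached 0.2 FPKM, which kept 17716 genes and 16 of the 30 zinc finger genes, 6 in the cluster and 10 elsewhere. Zfp993 was the member just inside this limit (mean 0.357 FPKM) and Zfp979 just outside it (0.182 FPKM). Zfp990 passed only through the knockout libraries, where it is high, so the 16 are not a neutral sample of the 30.

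Park7 itself was at 49.6, 53.8 and 36.7 FPKM in WT PBS, at 57.9, 53.1 and 60.5 FPKM in WT OVA, and at 3.96, 7.29 and 3.97 FPKM in DJ-1 KO OVA. The libraries held 20812192 to 29080130 reads. DJ1_KO_OVA_263 stood apart, with the lowest FPKM sum (308542, against up to 602047) and a summed level of T cell markers of 522 FPKM against 99.3 to 192 FPKM in the other 8. The summed level of proliferation markers was 10.7 to 22.8 FPKM in wild-type libraries and 41.9 to 111 FPKM in the knockout libraries, with 6 of 7 markers higher than in WT OVA. B cell markers summed to 302 to 399 FPKM against 103 to 249 FPKM, with 5 of 8 lower. Neutrophil markers summed to 8486 to 24529 FPKM against 1393 to 4388 FPKM (5 of 7 lower than in WT OVA), alveolar type 2 markers to 24821 to 41541 FPKM against 6262 to 13390 FPKM (1 of 6 lower), and fibroblast markers to 252 to 331 FPKM against 379 to 829 FPKM (3 of 6 higher). Ciliated markers summed to 191 to 473 FPKM against 67.5 to 183 FPKM (3 of 6 lower). Alveolar type 1 markers summed to 342 to 576 FPKM against 143 to 340 FPKM (3 of 5 tested lower). These counts are of markers called at an adjusted p below 0.05 against WT OVA, where 5.93% of all genes were higher and 8.24% lower. Markers of all 16 lung cell and tissue types examined were detected in the libraries, with no marker at 0 in all of them. In such bulk RNA, fewer cells of a type and less RNA per cell cannot be told apart, and the part of cell makeup in the differences below was not tested.

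Zfp990 was read in the knockout libraries and in none of the wild-type libraries. Its level was 1.89, 1.95 and 2.49 FPKM in DJ-1 KO OVA (227, 161 and 213 reads). It was listed at 0 reads in all 3 WT PBS and all 3 WT OVA libraries. Its 601 reads thus all came from the knockout group, and the groups did not overlap. A floor of 3 reads over each wild-type group covers only the counting error of its 0 reads. The pooled knockout level of 2.08 FPKM was 150-fold that floor in WT OVA and 176-fold that floor in WT PBS. The counting error of the 601 knockout reads is not included. The fitted difference of 2.38 on the log2(FPKM + 0.5) scale depends on the pseudocount and is not a measure of that fold.

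Zfp984 was the most highly expressed gene of the cluster in the wild-type libraries and showed the opposite difference. Its level was 6.99, 9.87 and 5.14 FPKM in WT PBS and 7.996, 7.55 and 9.59 FPKM in WT OVA. In DJ-1 KO OVA it was 1.49, 0.698 and 0.800 FPKM. All 6 wild-type libraries lay above all 3 knockout libraries, and the lowest wild-type value was WT PBS 3. The difference was -2.60 (SE 0.27) from WT OVA and -2.38 (SE 0.27) from WT PBS. Pooled over reads, WT OVA exceeded the knockout level 7.89-fold (95% counting interval 6.90 to 9.04) and WT PBS exceeded it 6.64-fold (5.81 to 7.62). The long noncoding gene Gm20707 overlaps Zfp984 on the same strand, so their reads are hard to separate; it went from 1.94 FPKM in WT PBS and 2.40 FPKM in WT OVA to 0.560 FPKM in the knockout mean.

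Zfp991 and Zfp993, which are nearly the same over their aligned coding bases, were also lower. Zfp991 was at 1.48, 1.90 and 0.926 FPKM in WT PBS, at 1.32, 1.54 and 2.42 FPKM in WT OVA, and at 0.279, 0.392 and 0.406 FPKM in DJ-1 KO OVA. Its knockout libraries were closely spaced and all below the wild-type ones, with a difference of -1.37 (SE 0.25) from WT OVA and -1.14 (SE 0.25) from WT PBS. Zfp993 was at 0.587, 0.611 and 0.434 FPKM in WT PBS, at 0.654, 0.445 and 0.439 FPKM in WT OVA, and at 0.0456, 0 and 0 FPKM in DJ-1 KO OVA. Only 2 of its 91 reads came from a knockout library, both from DJ1_KO_OVA_263. WT OVA exceeded the pooled knockout level 26.7-fold, with a wide counting interval of 6.93 to 228 because of those 2 reads. As most of the words of Zfp993 also occur in Zfp991, these are not separate measurements of the pair.

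Zfp992, another copy of this sequence type, did not separate the groups. It was at 0.350, 0.557 and 0.250 FPKM in WT PBS, at 0.572, 0.393 and 0.782 FPKM in WT OVA, and at 0.632, 0.130 and 0.270 FPKM in DJ-1 KO OVA. DJ1_KO_OVA_263 lay within the wild-type range, whereas DJ1_KO_OVA_266 was the lowest of all 9. The difference was -0.39 (SE 0.26) from WT OVA and -0.10 (SE 0.26) from WT PBS.

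Zfp933, the gene of the cluster nearest to Park7 and the one with little shared sequence, overlapped between the ovalbumin groups. It was at 0.438, 0.639 and 0.587 FPKM in WT PBS, at 0.964, 0.910 and 0.905 FPKM in WT OVA, and at 1.05, 0.655 and 0.862 FPKM in DJ-1 KO OVA. The 3 WT PBS libraries were the lowest of the 9. The difference between the ovalbumin groups was -0.08 (SE 0.18).

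**Figure D2:**
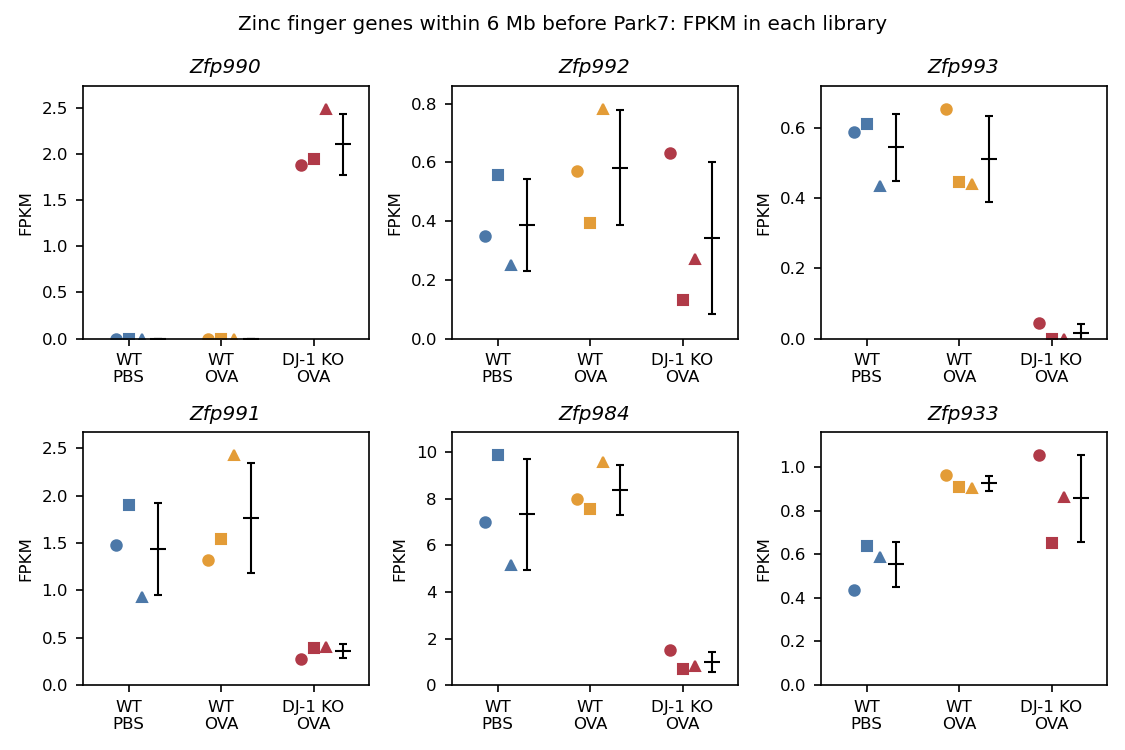
Each panel gives the FPKM (vertical axis, from 0) of one tested gene within 6 Mb before Park7 in the 3 groups; points are libraries, in the order of their numbers, and the bar beside them is the mean with its SD. Zfp990 is at 0 in the 6 wild-type libraries and at 1.89 to 2.49 in the knockout libraries, Zfp984, Zfp991 and Zfp993 are lower in every knockout library than in any wild-type library, and Zfp992 overlaps.

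The other 12 cluster genes were below the limit for testing. Zfp986, Zfp600 and Zfp988 had 0 reads in all 9 libraries. The remaining 9 had between 2 and 150 reads in all. Zfp979 and Zfp982 had fewer reads in the knockout libraries: the reads of Zfp979 were 61, 63 and 26 (WT PBS, WT OVA, knockout), and Zfp982 had 14, 22 and 2. WT OVA exceeded the knockout level 3.24-fold for Zfp979 (counting interval 2.02 to 5.32) and 14.7-fold for Zfp982 (3.61 to 129).

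Zfp534, Zfp978, Zfp980 and Zfp985 had few reads, most of them in the knockout libraries. Those of Zfp978 and Zfp980 are too few to compare. Zfp534 had 5, 1 and 4 reads in DJ1_KO_OVA_263, DJ1_KO_OVA_266 and DJ1_KO_OVA_267 and 0 in all wild-type libraries. Its pooled knockout level was 2.50-fold the same floor of 3 reads in WT OVA and 2.93-fold that in WT PBS. The counting error of its own 10 reads is not included, so these folds are not lower bounds. Zfp978 had 5, 0 and 1 knockout reads and no wild-type read, and Zfp980 had 2 reads, both in DJ1_KO_OVA_267. Zfp985 had 4, 2 and 4 knockout reads, 0 in WT OVA, and 6 reads in WT PBS, all in library 2. Zfp981, Zfp987 and Zfp989 had 7, 2 and 7 reads in all, too few to compare. With Zfp990, whose knockout values helped choose the group, 4 of the 18 genes near Park7 were read only in knockout libraries. Apart from Zfp990 they had 10 reads or fewer each. The share of all genes read only there was not counted, so this count supports nothing. Rex2, a C2H2 zinc finger gene in the same stretch that the name rule leaves out, had 3, 5 and 6 knockout reads and no wild-type read. It holds 58.55% of the words of Zfp980, so such low counts may not be separate measurements.

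Both the sum and the makeup of the RNA of the 18 cluster genes differed between the groups. The summed level of the 18 genes was 10.1, 14.2 and 7.65 FPKM in WT PBS, 11.8, 11.4 and 14.9 FPKM in WT OVA, and 5.63, 4.003 and 5.18 FPKM in DJ-1 KO OVA. Zfp984 made up 64.3% to 69.5% of it in the wild-type libraries but 26.4%, 17.4% and 15.4% in the knockout libraries. Zfp990 made up none of it in the wild-type libraries and 33.5%, 48.7% and 48.1% in the knockout libraries. Both shares were close among the 6 wild-type libraries, and DJ1_KO_OVA_263 had the highest share of Zfp984 of the knockout libraries. The sum and the shares are set largely by Zfp984 and Zfp990, whose knockout values chose the genes, so they are a description only. They also leave out Gm13212, a C2H2 zinc finger gene in the same stretch that the name rule does not take. Its mean was 2.36 FPKM over the wild-type libraries and 1.31 FPKM in DJ-1 KO OVA.

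**Figure D3:**
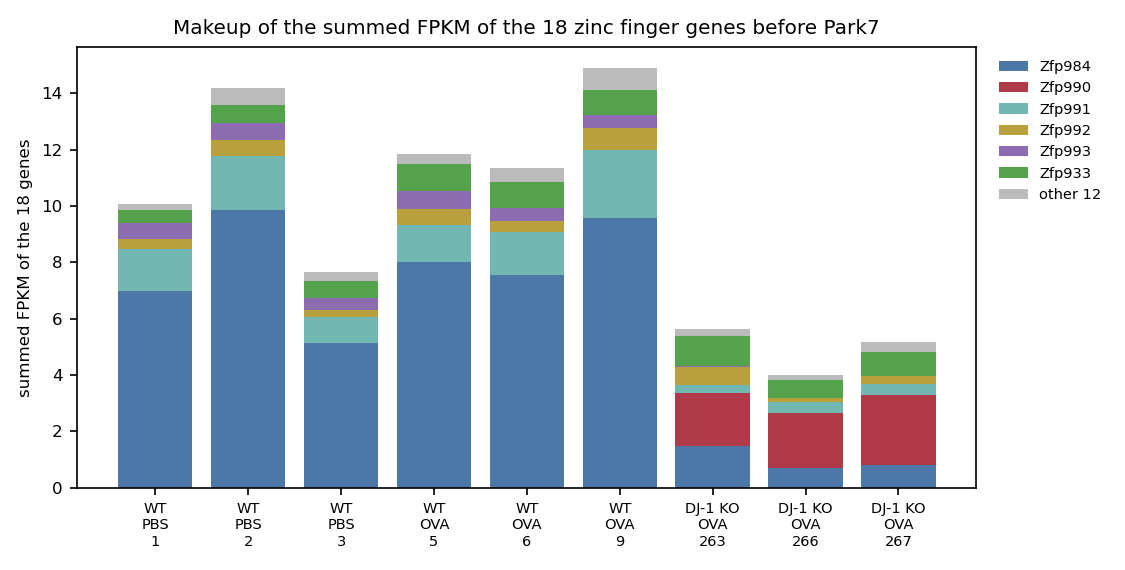
Stacked bars give the summed FPKM of the 18 zinc finger genes within 6 Mb before Park7 in each of the 9 libraries, split by gene. The wild-type bars reach 7.65 to 14.9 and are mostly Zfp984 (blue), and the knockout bars reach 4.003 to 5.63 with Zfp990 (red) as 33.5% to 48.7%.

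Away from the cluster, the 10 tested genes had fitted differences from WT OVA of -0.71 to 0.78. Zfp593, a small single-finger gene at chr4:134243289-134245592 on the minus strand, was the member below all wild-type libraries. It was at 0.583, 0.327 and 0.592 FPKM in WT PBS, at 0.624, 0.606 and 0.536 FPKM in WT OVA, and at 0.264, 0.162 and 0.0783 FPKM in DJ-1 KO OVA. The difference was -0.71 (SE 0.19) from WT OVA and -0.58 (SE 0.19) from WT PBS. E130218I03Rik overlaps it on the other strand and holds 66.9% of its 50-base words; since strand use in the counting is not given, their reads cannot be told apart, and E130218I03Rik was assigned 6 reads in all.

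Zfp683 encodes Hobit, a transcription factor of tissue-resident lymphocytes. It was at 0.636, 0.563 and 1.08 FPKM in WT PBS, at 0.425, 0.623 and 0.415 FPKM in WT OVA, and at 2.86, 0.576 and 0.834 FPKM in DJ-1 KO OVA. Only DJ1_KO_OVA_263 lay above the wild-type range, and this library also had the highest T cell marker sum. The difference from WT OVA was 0.78 (SE 0.37) and was 0.29 without DJ1_KO_OVA_263. The difference from WT PBS was 0.45 with that library and -0.05 without it. Natural killer cell markers were lower by group, summing to 160 to 259 FPKM in the knockout libraries and 300.3 to 600.3 FPKM in the wild-type libraries, with none of the 6 past the threshold. Within the knockout group DJ1_KO_OVA_263 had the highest of these sums (259 FPKM). The part of lymphocyte number in these Zfp683 values was not tested.

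Zfp362 had the highest mean over all 9 libraries of the 30 genes, although Zfp984 exceeded it in the WT OVA mean (8.38 against 7.09 FPKM). Zfp362 was at 8.37, 7.20 and 13.2 FPKM in WT PBS, 8.21, 6.99 and 6.08 FPKM in WT OVA, and 11.3, 9.35 and 12.1 FPKM in DJ-1 KO OVA. Its knockout libraries lay above WT OVA and within the range of WT PBS. The difference was 0.59 (SE 0.24) from WT OVA and 0.21 (SE 0.24) from WT PBS. Zfp46 was at 1.62, 1.40 and 2.05 FPKM in WT PBS, 0.960, 1.52 and 1.15 FPKM in WT OVA, and 1.05, 0.764 and 0.996 FPKM in DJ-1 KO OVA. It overlapped between the ovalbumin groups (-0.25, SE 0.20; 0.19 when libraries were set to equal FPKM sums, where the sign turns) and lay below WT PBS in all knockout libraries (-0.60, SE 0.20).

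The other 6 tested genes overlapped between DJ-1 KO OVA and WT OVA. Zfp292 had its highest value in DJ1_KO_OVA_263, at 6.26 FPKM, and ranged from 1.79 to 3.59 FPKM in the other 8. Zfp189, Zfp462, Zfp37, Zfp691 and Zfp69, the last a KRAB gene first studied in a mouse diabetes locus, had fitted differences of -0.19 to 0.24 from WT OVA. Zfp618 was below the limit, with 79, 31 and 129 reads in the same order of groups, 87 of the last in DJ1_KO_OVA_263. Zfp352, known from the early embryo, had 0 reads in all 9 libraries.

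**Figure D4:**
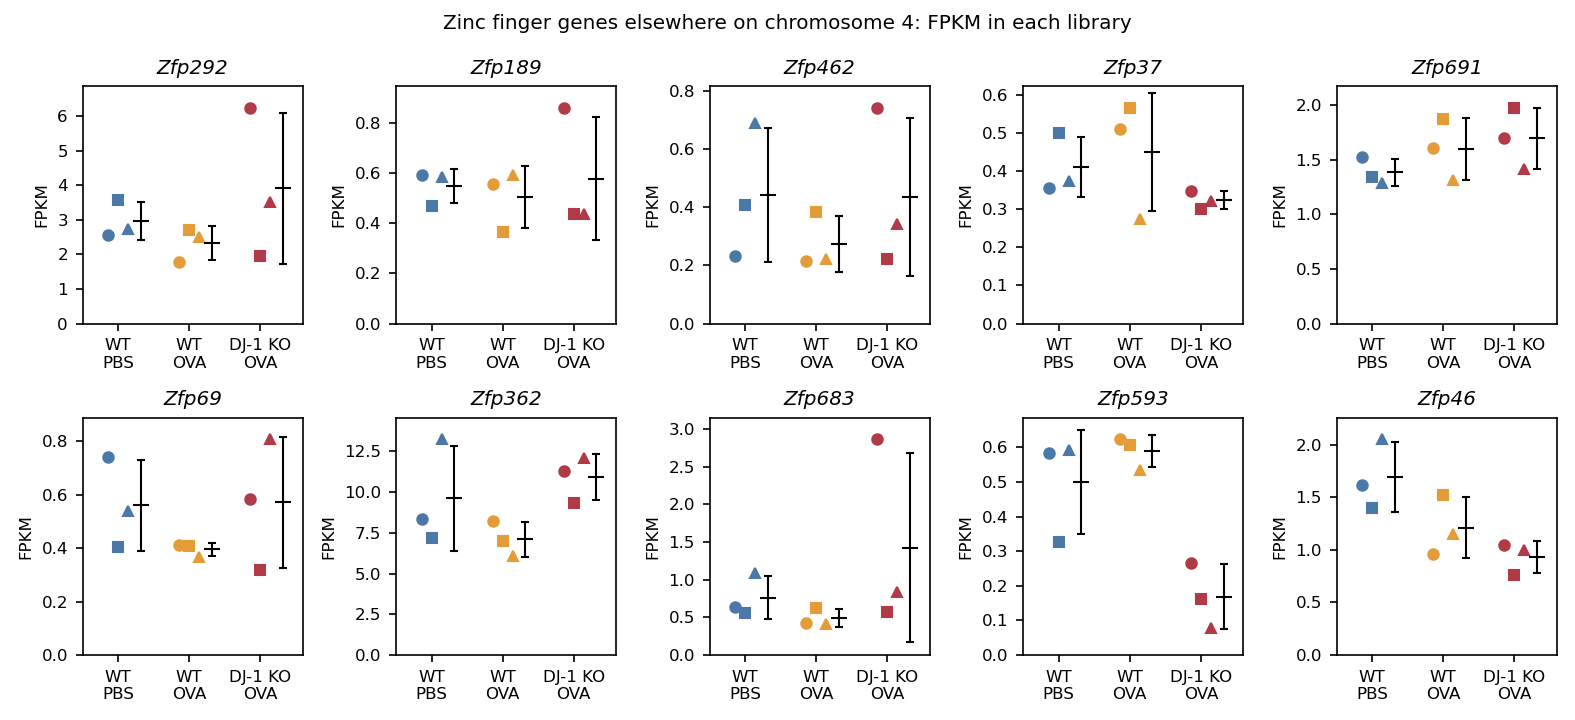
Each panel gives the FPKM (vertical axis, from 0) of one of the 10 tested zinc finger genes elsewhere on chromosome 4, by group; points are libraries in the order of their numbers and the bar is the mean with its SD. Zfp593 is lower in the knockout libraries (0.0783 to 0.264) than in all wild-type libraries (0.327 to 0.624), and for Zfp292 and Zfp683 DJ1_KO_OVA_263 (circle) is the highest point.

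Ovalbumin by itself, compared in wild-type mice, gave no change in these genes that passed the test. None of the 16 was called between WT OVA and WT PBS at an adjusted p below 0.05 (limma, Benjamini-Hochberg over 17716 genes), where 0.00564% of all genes were called; 1 had an unadjusted p below 0.05, and limma-voom on recovered reads also called 0. That one was Zfp933, whose WT OVA libraries all lay above WT PBS, with a difference of 0.44 (SE 0.18, limma unadjusted p = 0.037, adjusted p = 0.729). It was also the only one of the 16 whose groups did not overlap, against 14.8% of all genes. Zfp984 differed by 0.22 (SE 0.27, limma adjusted p = 0.831), Zfp991 by 0.23 (SE 0.25, adjusted p = 0.811), Zfp993 by -0.05 (SE 0.18, adjusted p = 0.954) and Zfp992 by 0.29 (SE 0.26, adjusted p = 0.769). Elsewhere, Zfp362 differed by -0.38 (SE 0.24, adjusted p = 0.732), Zfp46 by -0.36 (SE 0.20, adjusted p = 0.729) and Zfp683 by -0.34 (SE 0.37, adjusted p = 0.811). A p that misses the threshold does not show equal levels. Zfp990 had no read in either group, so its outcome in this comparison was fixed and it adds nothing to these counts out of 16.

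For the knockout comparisons the counts stand beside the background and are not evidence, since knockout values chose the genes. Against WT OVA, 5 of the 16 were past the threshold, where 14.2% of all genes were: 1 was higher (Zfp990), beside 5.93% of all genes, and 4 were lower (Zfp984, Zfp991, Zfp993 and Zfp593), beside 8.24%. Against WT PBS, 4 of 16 were past it, those genes without Zfp593, where 8.54% of all genes were, 4.07% higher and 4.47% lower. The 2 comparisons share the knockout libraries. The knockout libraries did not overlap any of the 6 wild-type libraries in 5 of 16 genes, against 16.9% of all genes. By place, 4 of the 6 tested cluster genes were past the threshold in each comparison, and 1 and 0 of the 10 elsewhere. The median difference of the 16 was -0.01 from WT OVA and -0.01 from WT PBS, beside 0.00 over all genes. Zfp990 is the highest of the 16, so taking its fold over the floor of 3 reads instead cannot move this median.

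The count of 5, like that over all genes, changed when 1 library was left out. It was 2 without DJ1_KO_OVA_267, where 1.61% of all genes were called, and 7 without DJ1_KO_OVA_266, where 32.1% were. Without DJ1_KO_OVA_267 the calls of Zfp991, Zfp993 and Zfp593 were lost, while the differences of Zfp991 and Zfp993 from WT OVA were -1.41 and -0.95, beside -1.37 and -0.97 with all libraries. Zfp593 was lost in 7 of 14 alternatives. Against WT PBS, Zfp991 was lost in 5 of 15, including without DJ1_KO_OVA_263 and without DJ1_KO_OVA_267.

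The neighbours of these genes give the setting. Of the 68 other tested genes within the same 6 Mb before Park7, 13 (19.1%) were past the threshold against WT OVA and 12 (17.6%) against WT PBS. On the rest of chromosome 4 the figures were 165 of 970 (17.0%) and 94 of 970 (9.69%), and over all genes 14.2% and 8.54%. The 68 are not all separate from the members. They include Znf41-ps and Gm13212, which share words with members, and Gm20707, which overlaps Zfp984. Each of these was past the threshold against WT OVA. The 4 neighbours with the largest differences from WT OVA were all lower: an unnamed transcript that starts at 149433646 (-3.38), the zinc finger pseudogene Znf41-ps (-1.72), and Fbxo44 (-1.70) and Fbxo2 (-1.50), adjacent genes for F-box proteins, the substrate-binding parts of ubiquitin ligases. Znf41-ps went from 2.05 FPKM in WT PBS and 2.49 FPKM in WT OVA to 0.392 FPKM in the knockout mean. It holds 67.1% of the words of Zfp991, so the similar differences of these 2 are not separate measurements either.

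**Figure D5:**
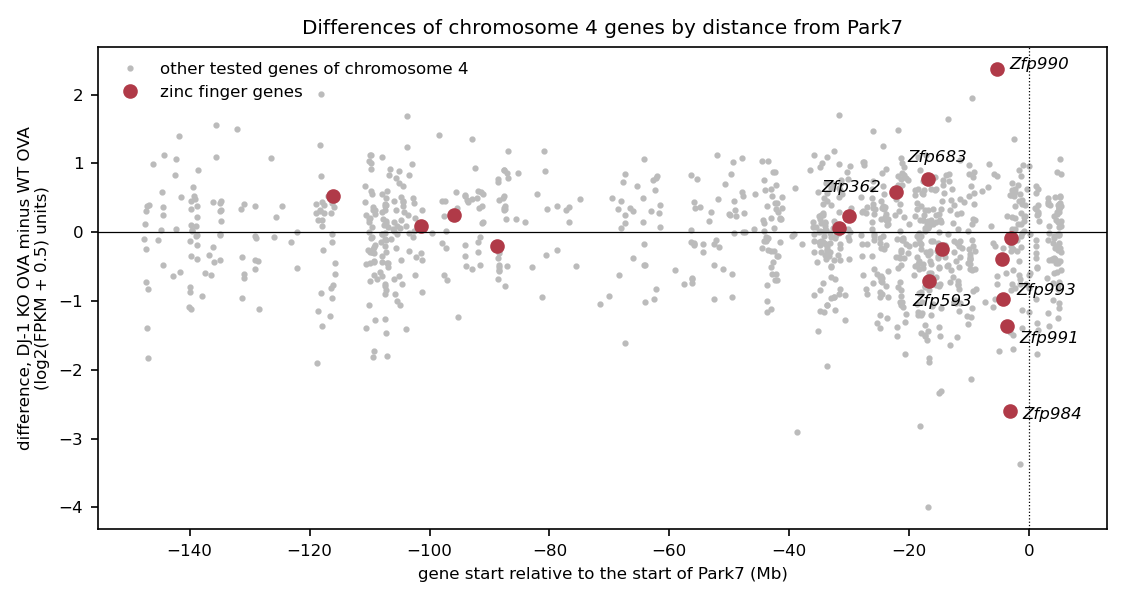
Each point is a tested gene of chromosome 4, placed by its start relative to the start of Park7 (horizontal axis, Mb) and by the difference of DJ-1 KO OVA from WT OVA (vertical axis, log2(FPKM + 0.5) units); red points are the 16 tested zinc finger genes and grey points the others. Zfp990 (2.38) and Zfp984 (-2.60) are the highest and the lowest of the red points, and the 10 zinc finger genes elsewhere lie between -0.71 and 0.78.

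Among the tested zinc finger genes of other chromosomes, 21 of 315 (6.67%) were past the threshold against WT OVA, 6 higher and 15 lower, and 3 of 315 (0.952%) against WT PBS. Those with the largest differences from WT OVA among the called were Zfp771 (-1.16), Zfp236 (1.13), Zfp931 (-1.12) and Zfp382 (1.04). The difference between this share and that of chromosome 4 was not tested, since the chromosome 4 genes were chosen on these values.

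The machinery through which KRAB zinc finger proteins act was expressed in all groups. Of 18 corepressor and heterochromatin genes tested, 6 were past the threshold of limma's adjusted p against WT OVA (5 higher, 1 lower), 3 against WT PBS (2 higher, 1 lower) and 0 between the wild-type groups. Over all genes the shares were 14.2% against WT OVA (5.93% higher, 8.24% lower), 8.54% against WT PBS and 0.00564% between the wild-type groups. Trim28, which encodes the central corepressor, had a mean level of 30.3, 27.2 and 35.5 FPKM (WT PBS, WT OVA, DJ-1 KO OVA), and was not called. Setdb1 rose from 2.47 FPKM in WT OVA to 5.02 FPKM in the knockout mean (0.88).

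Uhrf1 and Dnmt1, which copy DNA methylation at replication, rose with it. Uhrf1 rose by 2.16, from a mean of 1.97 FPKM in WT OVA to 6.25 FPKM or more in each knockout library and 24.5 FPKM in DJ1_KO_OVA_263, and Dnmt1 rose by 1.48. The proliferation markers given above were higher in the same libraries, and their part in the Uhrf1 and Dnmt1 values was not tested. Hdac1, a histone deacetylase gene that is itself on chromosome 4, was the one that fell, by 1.03, from 22.4 FPKM in WT OVA to 10.8 FPKM.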

How the data were processed

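RNA of lung cells was sequenced in 9 libraries. Per the submitters' processing notes, Trimmomatic, HISAT2, HTSeq and the build GRCm38.p6 were used; no versions are listed. The deposited values are FPKM per gene. Whole reads were recovered from the FPKM steps and gene lengths (100% whole within 0.01 read). The authors' library sizes were 0.890 to 1.21 times the recovered totals.

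Differences of log2(FPKM + 0.5) were fitted with limma 3.58.1 (R 4.3.3, limma-trend) over 17716 genes whose mean reached 0.2 FPKM, with Benjamini-Hochberg adjustment and a threshold of 0.05; the fit was tested on simulated data. Members, gene lists and comparisons were chosen with earlier results of these data known. Per-library values are given for Park7, Zfp990, Zfp984 and every tested member near Park7, and for the 3 tested members elsewhere with the largest difference in each comparison; of the corepressor list up to 4 called genes were named, and of neighbours and of other zinc finger genes the 4 largest. Gm20707 and E130218I03Rik were named for their overlap with members, Gm13212 and Rex2 for words shared with members, and the remaining members to account for all. Read ratios have 95% exact conditional binomial intervals for counting error only. Alternatives covered the pseudocount, filter, scaling, groups fitted, limma-voom and leaving out each library. Sequences are from RefSeq and GENCODE vM21; identities were computed with Biopython 1.88 alignments.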

Additional observations from a re-analysis of the deposited data

How the results depend on the processing

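Setting all libraries to equal FPKM sums moved the median difference of the 16 genes to -0.14 between the wild-type groups (all genes -0.22) and to 0.38 between DJ-1 KO OVA and WT OVA, where the median of all genes moved by 0.46; relative to that shift the median stayed near 0. The same scaling turned the split of all called genes from 41.9% higher to 88.0% higher against WT OVA and from 47.7% to 69.1% against WT PBS. With a filter at a mean FPKM of 1, which keeps 6 members, 2 were called against WT OVA (20.8% of all genes) and 2 against WT PBS (10.9%). Leaving out 1 library at a time gave 2 to 7 called members against WT OVA and 3 to 4 against WT PBS. The share of all genes called against WT OVA itself moved from 14.2% to between 1.61% (without DJ1_KO_OVA_267) and 32.1% (without DJ1_KO_OVA_266), with 28.4% at equal FPKM sums, 6.38% when only the 2 groups were fitted and 2.12% without a filter; against WT PBS it moved from 8.54% to between 2.20% (no filter) and 22.0% (without DJ1_KO_OVA_266). In all 15 alternatives 0 members were called between the wild-type groups. Over the alternatives the differences of Zfp984 and Zfp990 from WT OVA, which chose the genes, ranged from -3.10 to -2.09 and from 1.63 to 8.23, the latter set by the pseudocount and by limma-voom's offset for 0 reads. The filter at a mean FPKM of 0.1 was added after seeing the data and changed no count. No paired analysis was possible because the groups share no replicate numbers. With 3 libraries a group, and a few reads for most cluster genes, depth limits what can be said of the 14 untested members.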
